A study of Mus musculus with 8 samples.

Results

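The mRNAs of the translation initiation factors (eIFs) and elongation factors (eEFs) were examined in splenic CD4+ T cells of mice by RNA sequencing. A row of the expression table was a member if its gene symbol began with Eif and a digit from 1 to 6, or with Eef and the digit 1 or 2, and if its mean level was at least 0.5 RPKM (the reads of a gene scaled by its transcript length and by the total reads counted on genes) over the 8 libraries. Of the 27179 rows, 67 had such a symbol and 62 of these were members. The other 5 rows were Eif4e1b, Eif1-ps3, Eif2c5 and Eif2s3y, at 0 in every library, and Eef1a2, which was above 0 in 1 library only, at 0.0272 RPKM. The lowest member was Eef2k, with a mean of 2.72 RPKM, so no gene lay near the limit.

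The cells came from C.Cg-Foxp3tm2Tch/J mice, a strain that carries a reporter allele at the Foxp3 locus, in all groups alike. Control offspring descended from parents on unspiked water, and Cd offspring from parents that drank 10 ppm CdCl2 through mating and pregnancy, with the spiked water withdrawn at birth. At an age of 8 weeks, splenic CD4+ T cells were isolated by negative selection and FACS. The study describes the sequenced cells as CD4+CD25- conventional T cells. They were lysed at once (unstimulated) or after 16 h with beads carrying antibodies to CD3 and CD28 (stimulated). Each of the 4 groups (control or Cd, unstimulated or stimulated) had 2 libraries, which bear the numbers 6 and 7 in the labels. No library came from cells cultured for 16 h without beads. Effects of the beads and of 16 h in culture therefore cannot be told apart, and stimulation below stands for both together. The study describes each litter as an independent exposure, but the labels do not say which library came from which animal or litter, so the p-values measure the spread between these libraries only.

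Translation initiation begins when eIF2, bound to GTP and the initiator tRNA, joins the small ribosomal subunit together with eIF1, eIF1A, eIF3 and eIF5. The eIF4 factors bind the cap of the mRNA and unwind its leader. After start codon recognition eIF5B joins the large subunit, and eEF1A and eEF2 then carry each step of elongation, bringing the aminoacyl-tRNA and moving the ribosome along. Resting T cells translate little, and activation through the T cell receptor and CD28 is known to raise their protein synthesis sharply. The main points of control are the phosphorylation of eIF2 by stress kinases, which blocks its recharging by eIF2B, and the capture of eIF4E by the 4E-binding proteins (4E-BPs), which the kinase mTOR releases.

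The libraries held 15542732 to 25486791 reads counted on genes. CD4 T cell genes (Cd3d, Cd3e, Cd4, Cd5 and Lat) summed to 1410 to 1530 RPKM in unstimulated and 1020 to 1070 RPKM in stimulated libraries. The sums of the 4 B cell, 3 NK cell, 4 myeloid and 3 measured erythroid markers were at most 4.73, 4.47, 2.03 and 1.72 RPKM in any library. The 2 CD8 T cell markers summed to more, 9.52 to 10.7 RPKM in unstimulated and 10.3 to 11.8 RPKM in stimulated libraries. Over the 8 libraries the mean was 10.4 RPKM for Cd8b1 and 0.107 RPKM for Cd8a. The NK sum was 3.26 to 4.47 RPKM in unstimulated and 0.147 to 0.293 RPKM in stimulated libraries, and its part in the results was not tested. Foxp3, the factor of regulatory T cells, was at 4.48 to 7.69 RPKM. Of the activation genes, Myc stood at 35.9 and 32.3 RPKM in unstimulated and 198 and 187 RPKM in stimulated libraries of control offspring. The 62 members took 2.0% to 2.15% of the reads in the 4 unstimulated libraries and 2.45% to 2.51% in the 4 stimulated libraries, without overlap. Eef1a1 alone took 0.538% to 0.645%. In these bulk libraries, fewer cells of a type and less RNA per cell cannot be told apart, and RPKM is relative to the library total, so a level that falls here need not fall per cell.

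Most of the members were higher in stimulated than in unstimulated cells. The median log2 fold change of the 62 in control offspring was 0.74 (a fold of 1.67), beside 0.07 over the 12605 genes tested. At an adjusted p under 0.05 (limma, adjusted over all genes tested), 45 members were higher and 7 lower in stimulated cells, where 36.9% of all genes were higher and 27.8% lower. With the adjusted p and fold that the study required of its lncRNAs (adjusted p below 0.01, change beyond 2-fold; its limit on CPM and its own test were not applied here), 17 members were higher and 1 lower, against 11.5% and 7.17% of all genes. Eif4e, Eif5a, Eif5b, Eif6, Eif1a, Eif2s1, Eif3b and Eif3c were among the 17, while Eef1a1, Eef2, Eef1b2 and Eif3f, the most abundant in unstimulated cells of control offspring, passed no threshold. Quantile normalization moved the median of all genes by over 0.1, to -0.03, and that of the members to 0.60.

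Cd offspring were compared in the same way, in libraries of their own. Here 47 members were higher and 8 lower at an adjusted p under 0.05, where the shares of all genes were 36.5% and 29.4%. With the same limits 18 were higher and 0 lower, against 11.4% and 7.24% of all genes. The median was 0.67 over the members and 0.05 over all genes. Both offspring had 15 members over 2-fold higher in common. These were Eif1a, Eif1ax, Eif2s1, Eif2b3, Eif3b, Eif3c, Eif3j2, Eif4e, Eif4h, Eif4ebp1, Eif5a, Eif5a2, Eif5b, Eif6 and Eef1e1. Eif3a and Eif3l passed 2-fold in control offspring only, and Eif2s2, Eif2s3x and Eef1g in Cd offspring only, and for none of the 5 did the difference in response pass the test.

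**Figure D1:**
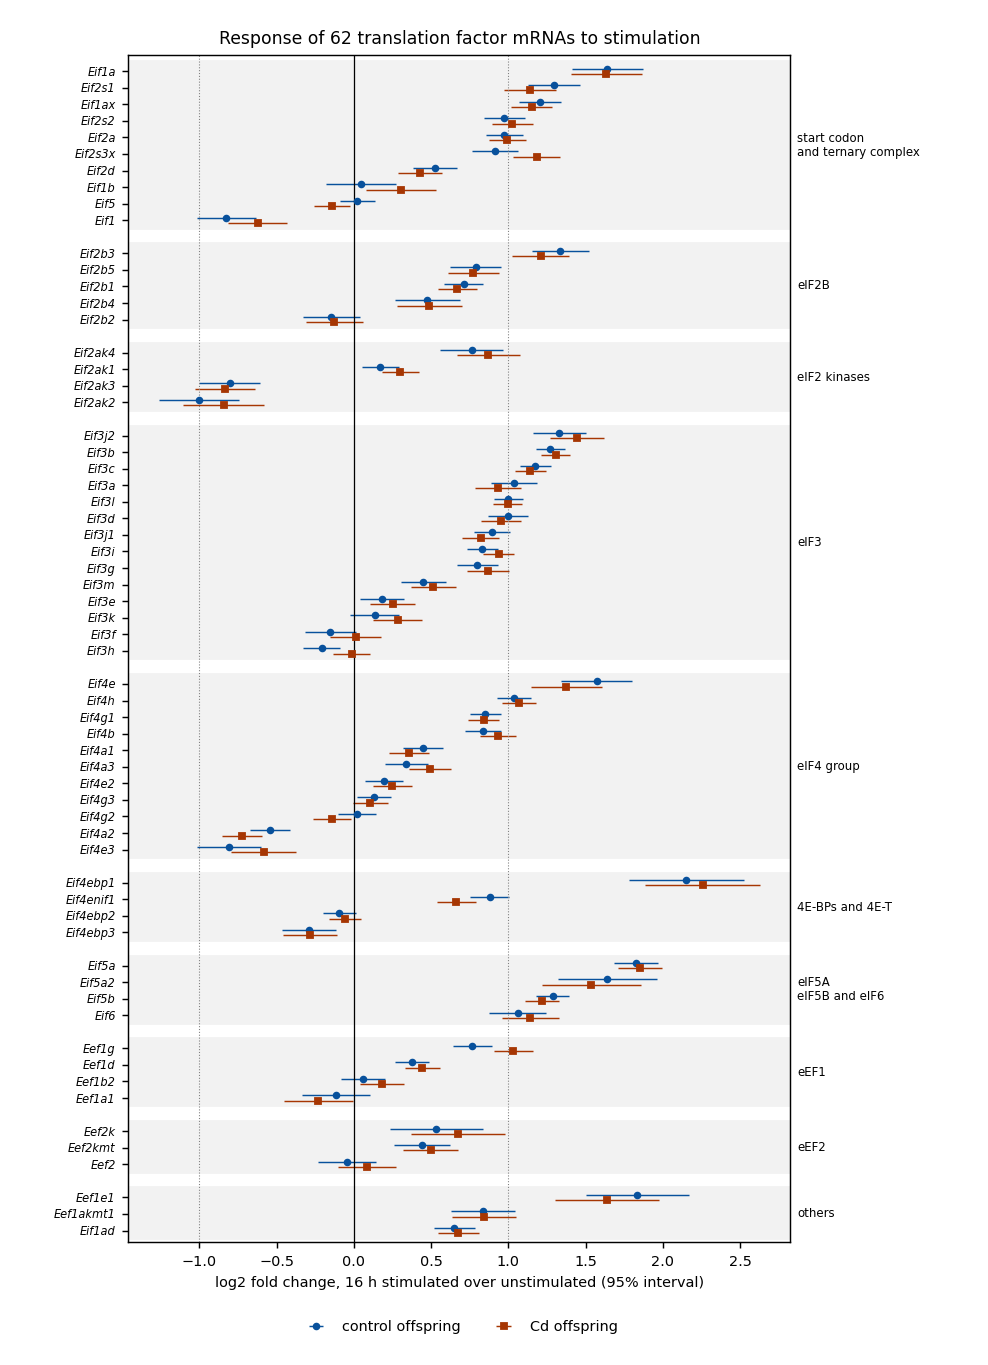
Log2 fold change of each of the 62 members between stimulated and unstimulated cells, in control (circles) and Cd offspring (squares), grouped by role. Bars are 95% intervals from limma, and dotted lines mark 2-fold. Most points lie right of 0, with the eIF5A, eIF5B and eIF6 group wholly above 1, while Eif1, Eif2ak2, Eif2ak3, Eif4a2 and Eif4e3 lie left of 0 in both offspring.

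The first role is start codon selection and the eIF2 ternary complex, with 10 members. In control offspring 7 of these rose, 1 fell and 2 did not pass the test, where 36.9% of all genes rose and 27.8% fell. Eif2s1, Eif2s2 and Eif2s3x encode the 3 subunits of eIF2. Eif2s1, the subunit that the stress kinases phosphorylate, was at 28.9 and 28.4 RPKM in unstimulated and at 74.6 and 66.7 RPKM in stimulated libraries of control offspring. This was a log2 fold change of 1.30 (standard error, SE, 0.07; limma adjusted p = 3.77e-06). Eif2s2 and Eif2s3x followed with 0.97 and 0.91 and also rose. The 95% interval of Eif2s1, 1.13 to 1.47, lay above those of Eif2s2 (0.84 to 1.11) and Eif2s3x (0.76 to 1.06), and the difference between subunits was not tested. Eif2a and Eif2d, which can carry initiator tRNA without eIF2, had log2 fold changes of 0.97 and 0.53 and rose as well.

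Eif1a and Eif1 moved in opposite directions, although their products bind side by side on the small subunit and scan for the start codon together. Eif1a had the largest rise of this role. It went from 17.7 and 15.6 RPKM to 53.7 and 50.4 RPKM in control offspring and from 14.6 and 17.6 RPKM to 50.2 and 49.7 RPKM in Cd offspring, with a log2 fold change of 1.64 in control offspring (SE 0.10, limma adjusted p = 5.31e-06). Its near-identical X-linked copy Eif1ax rose by 1.2 on the log2 scale, and reads of the pair may have been divided in the counting. Eif1, the most abundant member of the role, fell from 259.6 and 257 RPKM to 143 and 148 RPKM in control offspring. The log2 fold change was -0.83 (SE 0.08, limma adjusted p = 7.36e-05) and, in Cd offspring, -0.62. Its paralog Eif1b had 40.6 and 37.1 RPKM before and 37.0 and 43.4 RPKM after stimulation, so its groups overlapped in control offspring. Eif5, the GTPase-activating partner of eIF2, was at 146 and 139 RPKM and then at 148 and 142 RPKM. In Cd offspring both passed the test by little, Eif1b with a log2 fold change of 0.30 and Eif5 with -0.14, and not under every alternative.

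The eIF2B complex exchanges the nucleotide on eIF2, and 4 of its 5 subunits rose in control offspring, where 36.9% of all genes rose. Eif2b5, the catalytic subunit and the highest of the 5 by its mean level, went from 23.2 and 26.0 RPKM to 42.0 and 43.1 RPKM in control offspring. Eif2b3 had the largest rise, from 4.29 and 4.56 RPKM to 11.2 and 11.5 RPKM, with a log2 fold change of 1.34 (SE 0.08, limma adjusted p = 5.21e-06). Eif2b2 was the exception, with 32.3 and 31.1 RPKM before and 27.8 and 29.6 RPKM after stimulation and an adjusted p of 0.141 from limma. It was above Eif2b5 in the 4 unstimulated libraries and below it in the 4 stimulated libraries.

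The 4 eIF2 kinases did not move as a group, with 2 higher and 2 lower in control offspring, beside 36.9% and 27.8% of all genes. Eif2ak1 (HRI, the sensor of haem shortage) and Eif2ak4 (GCN2, the sensor of uncharged tRNA) rose, and Eif2ak2 (PKR, the sensor of double-stranded RNA) and Eif2ak3 (PERK, the sensor of unfolded protein in the endoplasmic reticulum) fell. Eif2ak4 rose from 5.58 and 6.34 RPKM to 9.98 and 10.3 RPKM in control offspring, a log2 fold change of 0.76 (SE 0.09, limma adjusted p = 0.000158). Eif2ak1 was the most abundant kinase, and its rise was small, from 27.7 and 28.2 RPKM to 31.1 and 32.0 RPKM. Its adjusted p of 0.0187 from limma passed 0.05 by little, and 7 alternatives took the call away. Eif2ak2 dropped from 12.2 and 11.0 RPKM to 5.95 and 5.53 RPKM, the only member over 2-fold lower, and by just that much, with a log2 fold change of -1.0 (SE 0.11, limma adjusted p = 0.000138). With pseudocounts of 0.5 and 1 RPKM the log2 fold change was -0.96 and -0.90, under 2-fold. Without control stimulated replicate 7 it was -0.95 and without control unstimulated replicate 6 it was -0.93, again under 2-fold. In Cd offspring the log2 fold change was -0.84. Eif2ak3 fell by 0.80 on the log2 scale in control and by 0.83 in Cd offspring.

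The eIF3 complex is the largest initiation factor and the scaffold on which the others meet, and its subunits responded unevenly. The members number 14, counting the loosely bound subunit j as its 2 copies Eif3j1 and Eif3j2. In control offspring 11 rose, 1 fell and 2 did not pass the test, where 36.9% of all genes rose and 27.8% fell. Eif3b, which joins the RNA-binding subunits of the complex, was at 71.9 and 72.4 RPKM in unstimulated and at 176 and 173 RPKM in stimulated libraries of control offspring. Its log2 fold change of 1.27 had a standard error of 0.04 and the lowest adjusted p of any member, 4.66e-07 from limma. Eif3f, the most abundant subunit, was at 275 and 261 RPKM before and at 234 and 248 RPKM after stimulation, and the adjusted p was 0.0924 from limma. Eif3h fell from 249 and 229.7 RPKM to 207 and 206 RPKM, with a log2 fold change of -0.21 and an adjusted p of 0.00862 from limma. In Cd offspring it had 211 and 216 RPKM before and 210.3 and 212 RPKM after stimulation, and no change was called. Eif3j2 had the largest log2 fold change of the group, 1.33, and Eif3j1 had 0.90. These 2 genes are near-identical copies, so the split of reads between them is uncertain.

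**Figure D2:**
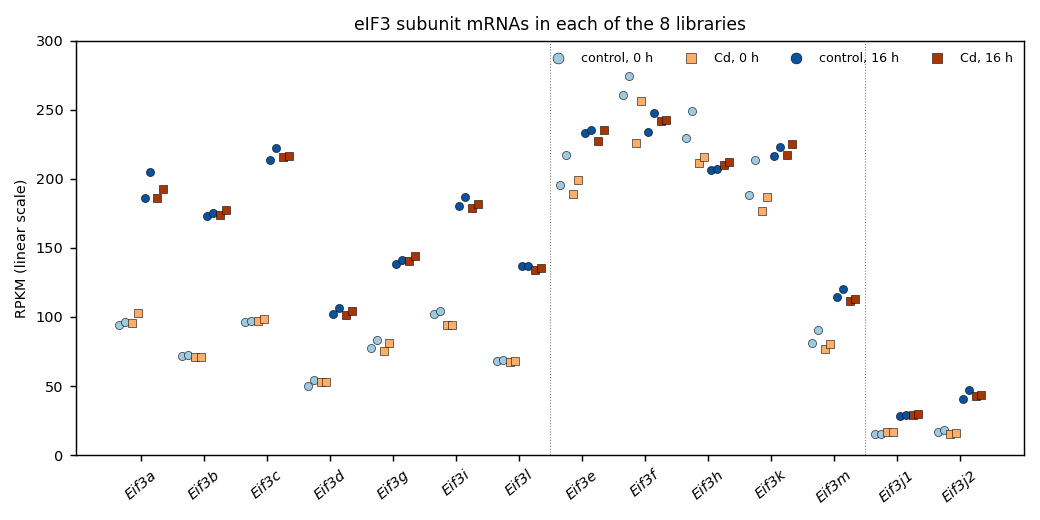
RPKM (linear axis) of the 12 stable eIF3 subunits and the 2 copies of subunit j, with 1 point per library, circles for control and squares for Cd offspring, light at 0 h and dark at 16 h. The 7 subunits on the left sit below 105 RPKM before stimulation and above 100 RPKM after it, while e, f, h and k stay between 176 and 275 RPKM in all 8 libraries.

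The uneven response brought the levels of the 12 stable subunits closer together. The highest subunit was 4.26 to 5.24 times the lowest in the 4 unstimulated libraries and 2.31 to 2.40 times in the 4 stimulated libraries. The coefficient of variation over the 12 subunits was 52.4% to 58.6% without and 25.7% to 26.4% with stimulation. When the subunits were split by their response, a split made after the values were seen, e, f, h, k and m had a median of 189 to 218 RPKM in unstimulated and 217 to 225 RPKM in stimulated libraries. The median of a, b, c, d, g, i and l was 75.1 to 83.3 RPKM and then 173 to 177 RPKM. The subunits a, b, c, g and i are those that the eIF3 of budding yeast also has, and each of these 5 rose.

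The eIF4 group binds the cap and recruits the mRNA. In control offspring 8 of its 11 members rose and 2 fell, beside 36.9% and 27.8% of all genes. Eif4e, the cap-binding protein, was at 13.9 and 14.7 RPKM in unstimulated and at 44.5 and 40.8 RPKM in stimulated libraries of control offspring. The Cd libraries had 14.3 and 17.4 RPKM and then 39.9 and 42.3 RPKM. The log2 fold change in control offspring was 1.57 (SE 0.10, limma adjusted p = 6.89e-06), the largest of this group. Its paralog Eif4e3, a cap-binding protein of lower affinity, fell from 10.6 and 10.6 RPKM to 6.09 and 5.93 RPKM, a log2 fold change of -0.81 (SE 0.09, limma adjusted p = 0.00013). The ratio of Eif4e to Eif4e3 was therefore 1.31 to 1.94 in unstimulated and 6.64 to 7.31 in stimulated libraries. Eif4e2, the third paralog, which represses rather than recruits, rose by 0.19 on the log2 scale, from 18.3 and 18.9 RPKM to 21.1 and 21.5 RPKM.

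The helicase genes Eif4a1 and Eif4a2 exchanged their order. Their products are closely related and both can serve in the cap-binding complex eIF4F. Eif4a1 rose from 115 and 116 RPKM to 156 and 159 RPKM in control offspring, and Eif4a2 fell from 201 and 202 RPKM to 142 and 134 RPKM. The log2 fold changes were 0.45 (SE 0.05, limma adjusted p = 0.000236) and -0.54 (SE 0.05, limma adjusted p = 8.13e-05). Eif4a1 was 0.568 to 0.582 times Eif4a2 in the 4 unstimulated libraries and 1.09 to 1.23 times in the 4 stimulated libraries. Eif4a1 has processed pseudogenes, and the treatment of reads that fit several places is not given in the sources used here.

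Of the other members of the group, Eif4b was the most abundant by its mean level. Eif4b and Eif4h, which both assist the helicase, had log2 fold changes of 0.84 and 1.04. The scaffold gene Eif4g1 had 0.85, whereas its relative Eif4g2, which lacks the part that binds eIF4E, was at 186 and 178 RPKM before and 188 and 180.4 RPKM after stimulation. In Cd offspring Eif4g2 fell from 190.4 and 204 RPKM to 179 and 178 RPKM, a log2 fold change of -0.14 whose limma adjusted p of 0.0455 passed by little and not under 12 alternatives. Eif4g3 had a log2 fold change of 0.13 that passed 0.05 in control offspring and did not pass under 12 alternatives, 1 of which, quantile normalization, turned it to -0.03.

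**Figure D3:**
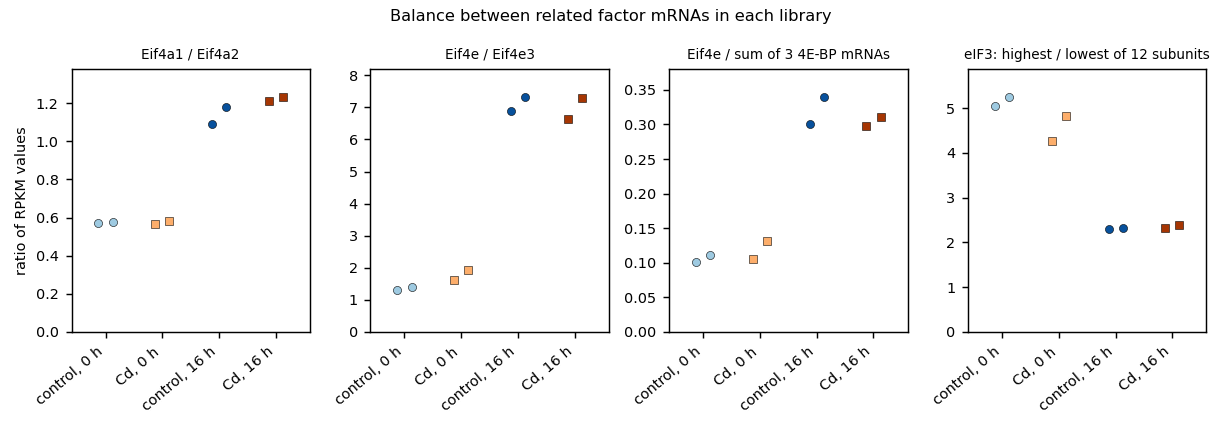
Ratios of RPKM values in each library (linear axes from 0), circles for control and squares for Cd offspring, for Eif4a1 over Eif4a2, Eif4e over Eif4e3, Eif4e over the summed 4E-BP mRNAs, and the highest over the lowest of the 12 stable eIF3 subunits. In each panel the 4 stimulated libraries lie apart from the 4 unstimulated libraries, above them in the first 3 panels and below them in the last.

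The 4E-BPs hold eIF4E away from the scaffold, and the 3 genes differed in level and in response. Eif4ebp2 was the main one, at 120 and 115 RPKM in unstimulated and 108 and 112 RPKM in stimulated libraries of control offspring, with an adjusted p of 0.102 from limma. Eif4ebp3 fell from 15.7 and 15.5 RPKM to 12.1 and 13.4 RPKM (log2 fold change -0.29). Eif4ebp1 had the largest log2 fold change of all 62 members, 2.15 in control (SE 0.16, limma adjusted p = 1.62e-05) and 2.26 in Cd offspring. It rose from 2.27 and 2.50 RPKM to 11.2 and 10.6 RPKM in control offspring. These values rest on 40 and 40 reads before and 171 and 203 reads after stimulation, the fewest reads of any member. Despite this rise Eif4ebp1 made up 1.34% to 1.91% of the summed 4E-BP mRNA in unstimulated and 7.85% to 8.53% in stimulated libraries. The level of Eif4e was 0.101 to 0.131 times that sum in unstimulated and 0.298 to 0.339 times in stimulated libraries. Eif4enif1, which carries eIF4E into the nucleus and to sites of mRNA storage, rose by 0.88 on the log2 scale.

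Of the group of eIF5A, eIF5B and eIF6, 4 of 4 members were over 2-fold higher in both offspring. The shares of all genes were 11.5% in control and 11.4% in Cd offspring. Eif5a encodes the hypusine-bearing factor that helps ribosomes past difficult peptide bonds. It was at 162 and 148 RPKM in unstimulated and at 543 and 556 RPKM in stimulated libraries of control offspring, and at 154 and 146 RPKM and then 528 and 551 RPKM in Cd offspring. Its log2 fold change was 1.82 (SE 0.06, limma adjusted p = 5.11e-07), and it became the most abundant mRNA with an Eif symbol in the stimulated libraries. The paralog Eif5a2 rose in parallel, from 2.62 and 2.04 RPKM to 7.51 and 7.32 RPKM, and made up 1.2% to 1.61% of the pair in every library. Eif5b, the GTPase of subunit joining, had a log2 fold change of 1.29, and Eif6, which keeps free large subunits apart from small ones, had 1.06.

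The elongation factors include the 2 most abundant members, and neither passed the test for stimulation in the reported fit. Eef1a1 was at 3605 and 3238 RPKM in unstimulated and at 3199 and 3107 RPKM in stimulated libraries of control offspring, and the log2 fold change was -0.12 (95% interval -0.34 to 0.10). In Cd offspring it was at 3546 and 3566 RPKM and then, without overlap, at 3057 and 3007 RPKM, a log2 fold change of -0.23 (95% interval -0.45 to -0.01, limma adjusted p = 0.064) that was called under 6 of the 19 alternatives, limma voom among them. Many processed pseudogenes resemble Eef1a1, so part of its reads could be counted elsewhere. Eef2, the translocase, was at 1327 and 1213 RPKM and then at 1219 and 1238 RPKM, with overlapping groups. The exchange factor subunits of eEF1 differed among themselves. Eef1g rose from 148 and 139 RPKM to 246 and 241 RPKM, a log2 fold change of 0.77 (SE 0.05, limma adjusted p = 1.23e-05), Eef1d rose by 0.37, and Eef1b2 was at 359.8 and 324 RPKM and then at 356 and 354 RPKM. Eef2k, the kinase that inactivates eEF2, rose from 2.22 and 2.52 RPKM to 3.53 and 3.41 RPKM, and Eef2kmt, a methyltransferase of eEF2, had a log2 fold change of 0.44.

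The other genes, which share the prefix, were kept as a group of their own. Eef1e1, a scaffold of the multi-tRNA synthetase complex despite its symbol, rose from 23.1 and 17.6 RPKM to 80.3 and 65.0 RPKM in control offspring, with a log2 fold change of 1.84 (SE 0.14, limma adjusted p = 2.12e-05). Eef1akmt1, a methyltransferase of eEF1A, had a log2 fold change of 0.83, and Eif1ad, a protein with an eIF1A-like domain, had 0.65.

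The response was read against the starting level, taken from the unstimulated libraries of Cd offspring so that the level and the response in control offspring came from different libraries. Of the 25 members at 20 to 100 RPKM, 23 rose and 0 fell, with a median log2 fold change of 0.97, beside -0.01 for the 3394 genes of that band, of which 38.1% rose and 37.6% fell. Of the 21 members under 20 RPKM, 17 rose and 4 fell, with a median of 0.71. The 8650 genes of that band had a median of 0.13, and 37.6% of them rose and 22.3% fell. At 100 RPKM or more, 5 of 16 members rose and 3 fell with a median of 0.02, while 20.1% of the 561 genes of that band rose and 53.8% fell with a median of -0.34. The median of the abundant members was thus near 0 in a band in which most genes fell. Over the 62 members the Spearman correlation between level and response was -0.31, and over all genes tested it was -0.16, both as a description over genes that share libraries and depth.

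**Figure D4:**
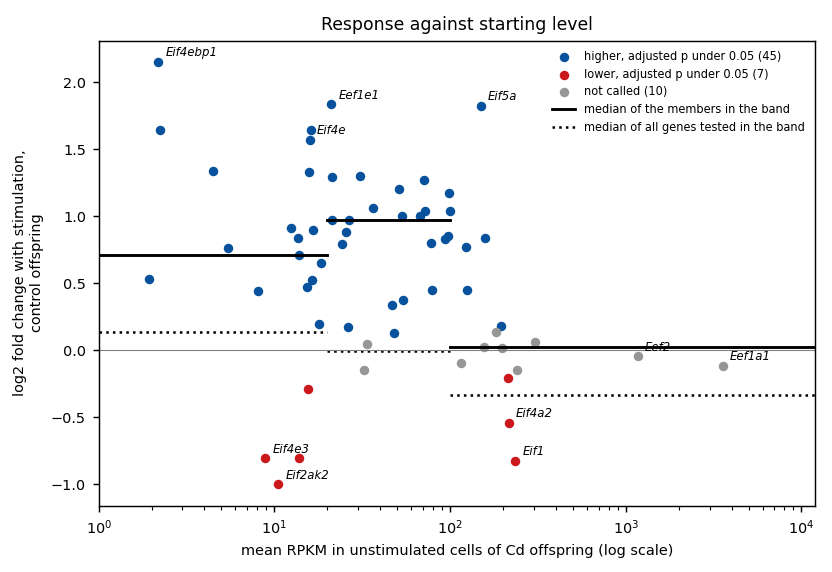
Log2 fold change with stimulation in control offspring against the mean RPKM in unstimulated cells of Cd offspring (log axis), with 1 point per member, coloured by its call. Solid lines are the median of the members and dotted lines the median of all genes tested in the bands under 20, 20 to 100 and 100 RPKM or more. The solid line lies above the dotted line in each band, at 0.71, 0.97 and 0.02 against 0.13, -0.01 and -0.34.

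Some members, both among those that rose most and among those not called, have the hexamer CACGTG close to an annotated start. It is the palindromic E-box that Myc, Usf and related proteins can bind. It was searched in RefSeq windows of GRCm38.p6 (250 bases before to 50 after each annotated start, so that a gene with several starts has several windows), which matched 48 of the 62 members. Being its own reverse complement, it needs no search of the other strand. It was present in 12 of the 48 members (25.0%), in 12.0% of the 9164 tested genes with a window and in 8.09% of the 27025 genes with one. Among the members over 2-fold higher in control offspring 5 of 12 held it, Eif3a, Eif4e, Eif4h, Eif5a and Eif5a2. Among the other members 7 of 36 did, Eef2, Eef2k, Eif1b, Eif3f, Eif3k, Eif4a1 and Eif4g1. Of these, Eef2, Eif1b, Eif3f and Eif3k were not called for stimulation in control offspring. Eif4ebp1 and Eef1e1, with log2 fold changes of 2.15 and 1.84, were not among the carriers, and a member without a window could not be. The pairs of sites in Eif4e and Eif5a2 and 1 of the sites in Eif5a are shown 5′ to 3′ on the strand of the gene, with the hexamer in capitals, because they belong to 3 of the strongest rises. In Eif4e (chr3, + strand) the hexamer begins 228 and 64 bases before a start, in chr3:138527028-138527057 and chr3:138527192-138527221. In Eif5a2 (chr3, + strand) it begins 142 and 117 bases before a start, in chr3:28781123-28781152 and chr3:28781148-28781177, and in Eif5a (chr11, - strand) 74 bases before a start, in chr11:69921443-69921472. All the printed sites lie inside the annotated span of their gene, so these starts are not the outermost ones.
Eif4e, far site: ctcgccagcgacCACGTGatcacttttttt
Eif4e, near site: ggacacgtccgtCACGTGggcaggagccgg
Eif5a2, far site: actaatccgcagCACGTGgggttgccaggg
Eif5a2, near site: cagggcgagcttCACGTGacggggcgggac
Eif5a: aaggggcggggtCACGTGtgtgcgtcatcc
The match describes these letters only, and binding was not measured here.

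The members were also described by how their mRNA is known to begin. Transcripts with a 5′ terminal oligopyrimidine tract (TOP), a run of C and T at the very start, are translated under the control of mTOR and include most ribosomal protein mRNAs. From general knowledge and not from a search of sequence, 9 members were listed as TOP mRNAs (Eef1a1, Eef1b2, Eef1d, Eef1g, Eef2, Eif3e, Eif3f, Eif3h and Eif4b). In control offspring 4 of the 9 rose and 1 fell with stimulation, with a median log2 fold change of 0.06. Of the other 53 members 41 rose and 6 fell, with a median of 0.80. Of all genes 36.9% rose and 27.8% fell (median 0.07). In Cd offspring 5 of the 9 rose and 0 fell (median 0.18), and 42 of the 53 rose and 8 fell (median 0.82). There 36.5% of all genes rose and 29.4% fell (median 0.05). The TOP members are also among the most abundant, so level and start sequence were not separated.

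A run of at least 8 pyrimidines that begins with C within 5 bases of an annotated start was found in 6 of the 48 members with a window (12.5%) and in 5.78% of the tested genes with one. These were Eif3f, Eif2s3x, Eef1a1, Eif2b2, Eif2b5 and Eif3l. The 3 longest are shown, 15 bases on each side of the boundary before the annotated start, with the run in capitals. Eif3f (chr7:108934400-108934429, + strand) has a run of 15, Eif2s3x (chrX:94212637-94212666, - strand) of 12 and Eef1a1 (chr9:78481710-78481739, - strand) of 10. The length is counted from the first C, so the T bases directly before the run of Eif2s3x are left out.
Eif3f: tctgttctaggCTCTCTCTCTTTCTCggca
Eif2s3x: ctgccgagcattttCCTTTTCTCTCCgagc
Eef1a1: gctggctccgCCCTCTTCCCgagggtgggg
Of the 6 genes with a run, Eif2s3x, Eif3l and Eif2b5 rose with stimulation in control offspring, by 0.91, 1.0 and 0.79 on the log2 scale, and Eif3f, Eef1a1 and Eif2b2 were not called. Only Eif3f and Eef1a1 of the 6 are also among the 9 listed TOP members. A listed member without a window could not be found, and how many of the 9 had one was not counted. The search and the list therefore cannot be compared over all 9.

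The question of whether parental Cd changed the members was addressed first in unstimulated cells. None of the 62 members differed at an adjusted p under 0.05 in limma, where 0.896% of all genes did, and 9 had an unadjusted p under 0.05, beside 13.9% of all genes. Of these 9, Eif5 and Eif4enif1 were higher and Eif2s3x, Eef1g, Eif4e3, Eif3h, Eif3i, Eef1b2 and Eif4b lower in Cd offspring. The 2 libraries of each group did not overlap for 10 members that were higher and 22 that were lower, beside 22.3% and 20.0% of all genes. The median log2 fold change of the members was -0.04, with 20 values above and 42 below 0, beside 0.01 over all genes, and the median half-width of the 95% interval was 0.14.

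Eif2s3x, the X-linked gene of the gamma subunit of eIF2, had the lowest adjusted p. It was at 15.6 and 15.9 RPKM in control and at 12.0 and 12.9 RPKM in Cd offspring, from 1004 and 927 and from 833 and 952 reads. Both Cd libraries lay below both control libraries, with a log2 fold change of -0.34 (95% interval -0.49 to -0.18, adjusted p = 0.0819 from limma). With limma voom on the whole reads recovered from the table the adjusted p was 0.0363 and the log2 fold change again -0.34, and without 1 library or under the other settings it ran from 0.075 to 0.308. In stimulated cells the gene was at 30.3 and 29.0 RPKM in control and at 29.3 and 27.4 RPKM in Cd offspring, so the groups overlapped. Its Y-linked partner Eif2s3y was at 0 in all 8 libraries, as was Kdm5d, and Xist was present in all.

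Eef1g had the next lowest adjusted p, 0.167 from limma, with 148 and 139 RPKM in control and 121 and 127 RPKM in Cd offspring. Eif4e3 was at 10.6 and 10.6 RPKM in control and at 8.83 and 8.97 RPKM in Cd offspring, with a log2 fold change of -0.25 and a limma adjusted p of 0.296. Of the 9 TOP members 8 had a value below 0 in Cd offspring and 4 of these an unadjusted p under 0.05 (13.9% of all genes had one in either direction), with a median of -0.12 beside -0.02 for the other 53 members. The number with such a p ranged from 1 to 5 over the 18 alternatives, and the median moved with the scaling and with single control libraries. With quantile normalization 7 of the 9 were below 0, 1 had an unadjusted p under 0.05 and the median was -0.05, with Eef2 at 0.07 and Eef1b2 at -0.03 in place of -0.12 and -0.16. Without control unstimulated replicate 6, again 7 were below 0 and 1 had such a p, and the median was -0.08. Without control unstimulated replicate 7 the median was -0.18. Of the eIF3 members 10 of 14 had a value below 0, and the groups did not overlap for 8 that were lower and 2 that were higher, beside 20.0% and 22.3% of all genes. The values ran from -0.16 to 0.11 on the log2 scale.

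**Figure D5:**
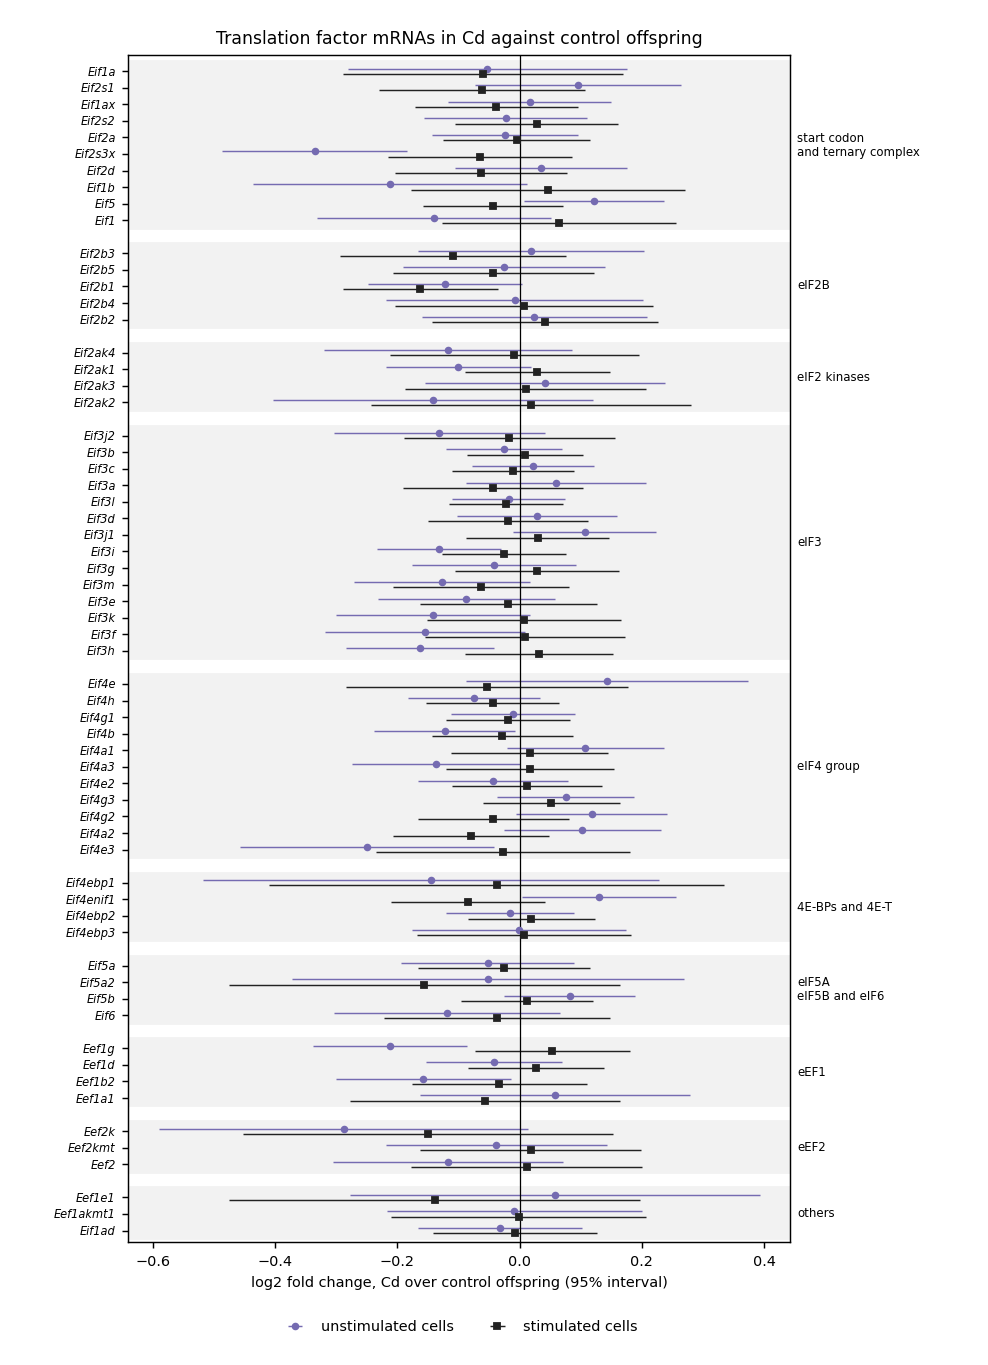
Log2 fold change of each of the 62 members in Cd over control offspring, in unstimulated (circles) and stimulated cells (squares), by role, with 95% intervals from limma. Values in unstimulated cells run from -0.34 for Eif2s3x to 0.14, those in stimulated cells from -0.16 to 0.06, and none passed an adjusted p of 0.05.

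In stimulated cells the members of Cd and control offspring lay closer together. None was called in limma or in limma voom, nor was any gene of the table in limma (0.0%), and 1 member, Eif2b1, had an unadjusted p under 0.05, beside 3.28% of all genes. Eif2b1 was at 25.1 and 24.5 RPKM in control and at 22.1 and 22.2 RPKM in Cd offspring, a log2 fold change of -0.16 with a 95% interval from -0.29 to -0.04. The groups did not overlap for 3 members that were higher and 15 that were lower, beside 16.0% and 20.6% of all genes. The median was -0.02 and the widest value in either direction was that of Eif2b1. Eif5a was at 543 and 556 RPKM in control and 528 and 551 RPKM in Cd offspring, with an interval of the log2 fold change from -0.17 to 0.12. Intervals of this width leave room for differences of about that size.

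Whether the response differed with parental exposure was tested as an interaction. No member passed an adjusted p of 0.05 in limma or in limma voom, where in limma 0.357% of all genes did, and 6 had an unadjusted p under 0.05, beside 10.6% of all genes. Of the 6, the response of Eef1g, Eif2s3x and Eif3h was larger, or less of a fall, in Cd offspring, and that of Eif4a2, Eif4enif1 and Eif5 smaller or more of a fall. The lowest adjusted p was that of Eef1g, 0.295, with log2 fold changes of 0.77 in control and 1.03 in Cd offspring. All but Eif4a2 also had an unadjusted p under 0.05 in unstimulated cells, a comparison that shares its libraries with this one.

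Genes that work next to the members were counted from lists of the wider pathway. In control offspring 36.9% of all genes rose with stimulation and 27.8% fell. Of 8 tested genes of release and recycling, 5 rose and 0 fell, led by Gspt1, the release factor GTPase, at 24.6 and 23.6 RPKM and then 65.9 and 62.4 RPKM (log2 fold change 1.41). Of 8 tested genes of the poly(A)-binding protein and its partners, 7 rose and 0 fell, and Larp4 rose most, by 1.62 on the log2 scale. Of 11 mitochondrial translation factors, 7 rose and 0 fell, led by the elongation factor Tufm with 1.08.

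Of 11 regulators of eIF2, eIF4A and eIF5A, 3 rose and 3 fell, which is near the shares of all genes. Ppp1r15a (GADD34), the subunit that directs a phosphatase to eIF2, fell from 322 and 287 RPKM to 22.0 and 22.8 RPKM in control offspring, a log2 fold change of -3.76 (SE 0.17, limma adjusted p = 1.4e-06). Pdcd4, an inhibitor of eIF4A, had 240.4 and 253 RPKM and then 111 and 107 RPKM. Dohh, which completes the hypusine of eIF5A, rose by 0.69. Of 17 tested genes of the mTOR and MNK pathway, 6 rose, near the share of all genes, and 2 fell, from Tbc1d7 with a log2 fold change of 1.23 to Ddit4, an inhibitor of mTOR induced by stress, with -1.57. Ddit4 was also the one gene of these lists called between Cd and control offspring in unstimulated cells. It stood at 120 and 127 RPKM in control and at 51.7 and 68.2 RPKM in Cd offspring, a log2 fold change of -1.05 (SE 0.13, limma adjusted p = 0.019). In stimulated cells it was at 39.0 and 44.1 RPKM in control and 48.3 and 42.5 RPKM in Cd offspring, and the limma adjusted p of the difference in response was 0.071.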

How the data were processed

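The libraries were made with a kit for mRNA (KAPA mRNA HyperPrep), and the authors used Subread (genome mm10) for alignment and featureCounts with RefSeq transcripts for counting. Versions, strand setting and the treatment of reads that fit several places are not given in the sources used here. The table deposited by the authors holds log2 values, which were found to be log2(RPKM + 1) + 0.0001. They were turned back into RPKM, and 0 columns were left without a sample. Whole reads were recovered from exact ratios between libraries, common divisors over genes and, where needed, a search over whole transcript lengths. This gave the reads of all 17794 genes above 0 in at least 2 libraries, within 0.002 of a whole number. The recovered library totals give the depth. Symbols were matched to RefSeq (GRCm38.p6) by gene ID, with 25275 matches.

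Genes with a mean of at least 0.5 RPKM (12605) were fitted on log2(RPKM + 0.1), a scale that understates changes of low genes, with limma 3.58.1 (R 4.3.3), 4 group means, empirical Bayes moderation with a trend and Benjamini-Hochberg adjustment. An exact permutation test of 2 libraries against 2 cannot go below p = 0.333. The fit was tested on simulated data. Stimulation was called at an adjusted p under 0.01 and over 2-fold, and at 0.05, and the other comparisons at 0.05. Members, roles, lists and tests were chosen with earlier results of these data known. Named with values are, per role, the most abundant member and the called members with the largest rise and fall, set pairs of paralogs, and called genes of the Cd comparisons. Others named by an unadjusted p, by non-overlap or as contrast were chosen after their values were seen. Tried in turn were a pseudocount of 0.5 or 1 RPKM, a minimum mean of 1 RPKM or none, median-of-ratios scaling, quantile normalization, no trend, the libraries of a comparison only, replicate blocks, and each library left out. Limma voom on the recovered reads was added after seeing the data.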

Additional observations from a re-analysis of the deposited data

How the results depend on the processing

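All 19 alternatives to the reported fit left the direction of the called members as reported, except for Eif4g3. Of the 52 members called at an adjusted p under 0.05 for stimulation in control offspring, 46 were called in each alternative run and 6 were not in at least 1 (Eif2ak1, Eif3e, Eif3h, Eif4e2, Eif4ebp3 and Eif4g3). Of 55 in Cd offspring, 47 were called in each and 8 were not (Eef1b2, Eif1b, Eif2ak1, Eif3e, Eif4e2, Eif4ebp3, Eif4g2 and Eif5). Calls were also gained in at least 1 alternative, by Eif2b2 (in 4), Eif3f (3), Eif3k (2), Eif4ebp2 (2) and Eef1b2 (1) in control offspring and by Eef1a1 (6), Eif2b2 (2) and Eif4ebp2 (1) in Cd offspring. The log2 fold change of Eif4g3 in control offspring was -0.031 under quantile normalization and 0.13 as reported. The median over the members for stimulation in control offspring was 0.66 with median-of-ratios scaling, 0.71 and 0.68 with pseudocounts of 0.5 and 1 RPKM, and 0.60 with quantile normalization, and it ran from 0.70 to 0.74 with each library left out. In Cd offspring it was 0.63 with median-of-ratios scaling, 0.65 with a pseudocount of 1 RPKM and 0.58 with quantile normalization, and ran from 0.66 to 0.71 with each library left out. Leaving out a library moved the median for Cd against control in unstimulated cells from -0.065 (without control unstimulated replicate 7) to -0.011 (without control unstimulated replicate 6), and that of the difference in response from -0.0028 (without control unstimulated replicate 6) to 0.042 (without Cd stimulated replicate 6). The latter was 0.055 with median-of-ratios scaling. In unstimulated cells 1 member, Eif2s3x, was called with voom on the recovered reads. The cause of these shifts was not tested. The labels leave unsaid whether a shared number marks a shared animal. The deviations of same-numbered libraries from their group means correlated at 0.0635 and 0.0085 between unstimulated and stimulated cells. With the replicate number as a block over all libraries, 50 members were called in control and 54 in Cd offspring and 0 in the Cd comparisons, and with exposure and number together as a block 50 and 52. Depth limits Eif4ebp1 most, with 36 to 49 reads in unstimulated libraries.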
